A study of Mus musculus with 12 samples.

Results

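Proteasome genes were followed across the 4 groups of bone marrow-derived macrophage libraries of this study. Their members were taken by name, as every protein-coding gene whose symbol is Psma, Psmb, Psmc, Psmd, Psme, Psmf or Psmg followed by a number. This gave 50 members among the 24465 genes listed in either table, of which 16170 are protein-coding. By role, 5 are the interferon-inducible catalytic subunits and activator subunits (Psmb8, Psmb9, Psmb10, Psme1 and Psme2), 8 belong to the alpha ring and 8 to the beta ring of the 20S core, 6 are ATPases and 11 are non-ATPase subunits of the 19S cap, 4 are other activators or an inhibitor, and 7 are assembly chaperones. Psmc3ip, a partner of meiotic recombinases, carries a matching name and is no subunit.

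The study grew macrophages from the bone marrow of mice of 2 genotypes, Lyz2cre and Klf6fl/fl:Lyz2cre, and left them untreated or gave them TNF at 10 ng/ml for 6 h. Each of the 4 groups has 3 libraries of total RNA, 12 in all. Every animal, controls included, carries Lyz2cre, which drives the Cre recombinase in myeloid cells, and the Klf6fl/fl:Lyz2cre animals also carry floxed alleles of Klf6, a zinc-finger transcription factor. The labels give no strain, age or floxed exons and do not say whether replicates come from different mice or dishes. The p-values therefore measure only the spread among these libraries, which may be technical.

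The proteasome is the barrel-shaped protease that degrades ubiquitin-tagged proteins: rings of alpha subunits gate the chamber, rings of beta subunits hold the proteolytic sites, and a cap of ATPases and ubiquitin receptors unfolds and feeds in the substrate. Interferons induce Psmb8, Psmb9 and Psmb10, which replace the constitutive catalytic subunits encoded by Psmb5, Psmb6 and Psmb7 in newly built particles and so form the immunoproteasome. Psme1 and Psme2 encode a ring-shaped activator that docks on the core without ATP, and in macrophages the inducible form is known for supplying peptides to the major histocompatibility complex class I pathway.

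The libraries held 16.9 to 23.4 M reads. Klf6 was lower in the Klf6fl/fl:Lyz2cre libraries than in their controls, at 6894 to 7405 against 9984 to 10310 normalized counts untreated and at 4133 to 4211 against 7155 to 7622 with TNF, so transcript remained. Normalized counts are reads after division by 1 size factor for each library. All 10 macrophage markers examined were measured in every group. Stromal markers differed between genotypes: their summed level was 4211 to 4505 CPM (read counts scaled to the same library total) in untreated Klf6fl/fl:Lyz2cre libraries against 208.2 to 248.5 in untreated controls, with 16 of the 16 tested markers higher and none of the 18 at 0, and 286.9 to 341.6 against 67.06 to 85.93 CPM with TNF, with 12 of 14 higher. Library Lyz2cre TNF 2 stood further from its replicates than any other, with a chi-square per gene of 8.663 and 6.491 against 2.97 between the other 2.

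Short promoter stretches are shown for 3 members whose values carry the results: the inducible activator subunit Psme1 and the constitutive catalytic subunits Psmb5 and Psmb6. Each is 30 bases from RefSeq's promoter table (build GRCm38.p6), written 5′ to 3′ in the direction of the gene, with the motif match in capitals.
Psme1 (chr14:55578493-55578522, plus strand): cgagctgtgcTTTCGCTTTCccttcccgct
Psmb5 (chr14:54618023-54618052, minus strand): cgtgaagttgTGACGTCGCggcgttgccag
Psmb6 (chr11:70525338-70525367, plus strand): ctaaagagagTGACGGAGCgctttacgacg

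Counted from RefSeq's first transcript base as 0, the Psme1 match lies at 9 to 18 on the opposite strand, the Psmb5 match at -47 to -39 and the Psmb6 match at -9 to -1. These starts can differ from the gene positions given below, which come from another annotation (GENCODE). There Psme1 begins at 55578123, before its searched window, which begins at 55578244. The capitals in Psme1 match, on the opposite strand, GAAA, any 2 bases and GAAA, the letters of an interferon-stimulated response element (ISRE), and those in Psmb5 and Psmb6 match TGACNNNGC, the letters of the antioxidant response element bound by NRF factors. Matches were searched on both strands over the 250 bases before and 50 after each start, in the promoters of the 42 members that the table holds. A member was counted when any of its promoters matched, and Psma6, Psmc2 and Psme2 had 2 each. The percentages over all promoters count each promoter on its own.

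ISRE letters occurred in 5 of these 42 members (Psmb3, Psmd4, Psmd9, Psme1 and Psmg4) and in 3.44% of all 32851 promoters, and the shorter letters AANNGAAA, which every ISRE match also contains, in 13 against 23.9%. The antioxidant element's letters occurred in 6 (Psmb5, Psmb6, Psmc6, Psmd12, Psmd9 and Psme4) against 12.4%, with none of the 5 inducible members among them. No member's window held the NF-kB letters (GGGA, any base, TT, any base, CC), which 1.2% of promoters held. A match is a run of letters in this window and was not tested as a binding site.

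In untreated macrophages, the 5 inducible members were all higher in Klf6fl/fl:Lyz2cre libraries, by 0.32 to 0.83 on the log2 scale (median 0.42), and 22 of the other 44 tested members were higher as well. The median over these 44, called or not, was 0.11, and Psmc3ip (0.91), Psmd8 (0.43), Psmb5 (0.42), Psmd11 (0.36) and Psmd14 (0.32) reached or passed the lowest inducible value. The rise covered catalytic and structural core subunits and the base and lid of the 19S cap, and none of the 7 assembly chaperones was called. Genotypes were compared by limma on log2(value + 1), and a gene was called at a Benjamini-Hochberg adjusted p below 0.05 over the 12715 genes tested. Of all genes tested, 56.9% were called, 27.6% higher and 29.3% lower, with a median of -0.01. In these bulk libraries, a change in the share of cells of a type and a change in RNA per cell cannot be told apart. The stromal and macrophage marker sums differed between the same groups (macrophage 7643 to 8106 against 12260 to 12290 CPM, with 9 of 10 markers lower), as did those of 6 cycling markers, all higher (211.0 to 230.9 against 75.83 to 81.48 CPM). Endothelial markers (247.0 to 253.8 against 136.7 to 147.7 CPM, 6 of 6 tested higher) and granulocyte and monocyte precursor markers (356.2 to 373.6 against 261.0 to 284.6 CPM, 5 of 7 higher and 2 lower) also had higher sums. Dendritic cell markers (13.17 to 18.46 against 26.72 to 31.69 CPM) and lymphocyte markers (4.864 to 6.286 against 10.76 to 13.28 CPM) had lower sums. In each of these lists only 1 marker was tested, and it was lower: Itgax (12.04 against 27.27 CPM) and Cd4 (2.795 against 8.997 CPM). Of their untested markers, Flt3, Zbtb46, Ccr7, Cd3e, Cd8a and Nkg7 were higher and Cd79a lower without overlap. The part of these markers in the result was not tested.

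Psmb8, the inducible chymotrypsin-like subunit (chr17:34197721-34201454, plus strand, GRCm38), had 1548, 1709 and 1659 normalized counts in the untreated Lyz2cre libraries and 2770, 2657 and 2794 in the untreated Klf6fl/fl:Lyz2cre libraries. The groups did not overlap, and the fold change was 1.67 (log2 0.74, SE 0.0457, limma adjusted p = 1.2e-10). Psmb9, the inducible caspase-like-site replacement (chr17:34181987-34187764, minus strand), had 872.1, 869.2 and 922.1 against 1513, 1676 and 1552, which was the largest rise of the 5 (log2 0.83, SE 0.0530, limma adjusted p = 1.9e-10). The annotated start of Psmb9 overlaps that of the peptide transporter gene Tap1 on the opposite strand by 212 bases, and no source used here says whether the counting used strand.

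Psmb10, the inducible trypsin-like subunit (chr8:105935735-105938444, minus strand), had 1521, 1467 and 1494 normalized counts in the untreated Lyz2cre libraries and 1911, 1986 and 2013 in the Klf6fl/fl:Lyz2cre ones (log2 0.40, limma adjusted p = 3.2e-07). Both subunits of the inducible activator moved the same way. Psme1 (chr14:55578123-55581529, plus strand) had 2202, 2242 and 2230 against 2752, 2813 and 2785 (log2 0.32, limma adjusted p = 9.1e-07). Psme2 (chr14:55587441-55591113, minus strand), 5.91 kb from Psme1, had 1649, 1644 and 1653 against 2149, 2317 and 2172 (log2 0.42, limma adjusted p = 1.4e-07). None of the 5 had overlapping groups. Of the other 44 members, 25 were higher and 1 lower without overlap, where this held for 30.1% and 32.2% of all genes tested.

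**Figure D1:**
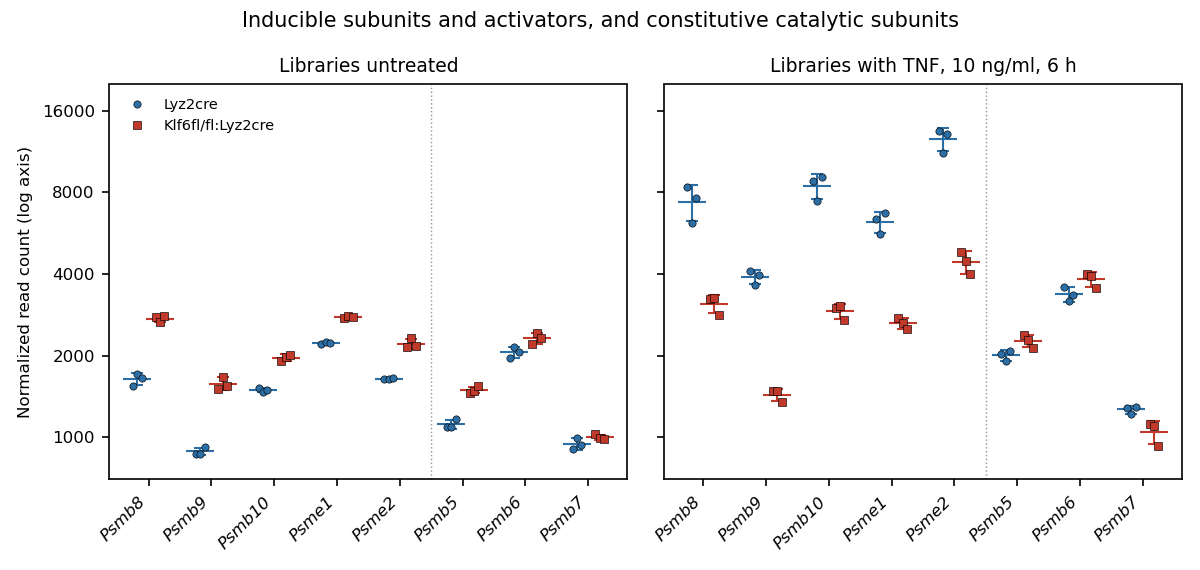
Normalized read counts (log axis) of the 5 inducible members and, right of the dotted line, of the 3 constitutive catalytic subunits, in untreated libraries (left) and with TNF (right). Points are libraries, long bars are means and whiskers are SD over 3 libraries, and the 2 panels were normalized separately. Each inducible member is higher in the Klf6fl/fl:Lyz2cre libraries in the left panel and lower in the right panel.

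The constitutive counterparts moved less evenly. Psmb5, the chymotrypsin-like subunit that Psmb8 replaces, had 1093, 1090 and 1170 normalized counts in untreated Lyz2cre libraries and 1464, 1487 and 1543 in the Klf6fl/fl:Lyz2cre ones, a rise as large as that of Psme2 (log2 0.42, SE 0.0494, limma adjusted p = 7.1e-07). Psmb6, the caspase-like subunit, had 1961, 2154 and 2069 against 2206, 2421 and 2331 (log2 0.17, limma adjusted p = 0.005). Psmb7, the trypsin-like subunit, had 904.9, 997.6 and 934.1 against 1026, 994.9 and 986.4 and was not called, with overlapping groups.

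By role, 4 of the 6 ATPases (median 0.16), 8 of the 11 non-ATPase cap subunits (median 0.16), 5 of the 7 tested beta subunits (median 0.17) and 3 of the 8 alpha subunits (median 0.13) were higher. Psmb11, the thymus-specific beta subunit, was not tested: it had at most 2.188 normalized counts in an untreated library and is not listed in the TNF table. Psmd8, a lid subunit of the cap, had 4088, 4306 and 3792 against 5525, 5461 and 5466 (log2 0.43, limma adjusted p = 6.8e-08). Psmd11, a scaffold of the lid, had 1403, 1298 and 1350 against 1735, 1733 and 1743 (log2 0.36, limma adjusted p = 1.9e-06). Psmd14, the deubiquitinase that strips ubiquitin chains from substrates, had 969.5, 986.7 and 936.3 against 1126, 1274 and 1207 (log2 0.32, limma adjusted p = 8e-05). These 3 cap subunits, and Psmd12 of the same lid at 1199, 1191 and 1220 against 1403, 1507 and 1397 (log2 0.25), kept their groups apart.

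Among the smaller called rises were Psmc6, an ATPase, at 1401 to 1462 against 1568 to 1654 normalized counts (log2 0.16), Psmb2, a structural beta subunit, at 1084 to 1171 against 1242 to 1290 (log2 0.15), Psmd7, the partner of Psmd14, at 1333 to 1383 against 1422 to 1528 (log2 0.14), and Psmd4, a ubiquitin receptor, at 1584 to 1705 against 1717 to 1849 (log2 0.12). Several of these calls rested on single libraries. Psmb2 was not called without Klf6fl/fl:Lyz2cre replicate 3 (log2 0.14) or Lyz2cre replicate 2 (0.12), and Psmd7 without replicates 1 or 2 of either genotype (0.12 to 0.13). Psmd4 was lost without Klf6fl/fl:Lyz2cre replicates 1 or 3 or Lyz2cre replicates 1 or 3 (0.09 to 0.12). Psmc3ip, which is no proteasome subunit, had 27.36, 26.63 and 15.31 against 40.84, 44.86 and 43.03 (log2 0.91, limma adjusted p = 0.012), and 0.65 (adjusted p = 0.05) without Lyz2cre replicate 3. Its Lyz2cre mean of 1.111 CPM (SD 0.3237) was near the 1 CPM in 3 libraries needed for testing, against 2.265 CPM.

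The other activators differed less than the inducible pair. Psme4, a large nuclear activator, had 2137, 1996 and 2118 normalized counts in untreated Lyz2cre libraries against 2231, 2298 and 2195 (log2 0.11, limma adjusted p = 0.045), a call lost without Klf6fl/fl:Lyz2cre replicates 1 (0.11) or 2 (0.09) or Lyz2cre replicates 2 (0.08) or 3 (0.12). Psme3, the nuclear relative of Psme1 and Psme2, had 1668, 1660 and 1751 against 1826, 1831 and 1779 and was not called (log2 0.10, limma adjusted p = 0.064). It passed without Lyz2cre replicate 3 (log2 0.12, limma adjusted p = 0.047). Psmf1, which encodes an inhibitor of the core particle, had 841.4, 797.8 and 714.3 against 747.7, 787.6 and 754.2 and was not called.

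Psme2b, an intronless copy of Psme2 on chromosome 11 (chr11:48945354-48946190, minus strand), was the single member called lower in untreated libraries. It had 368.7, 362 and 428.8 normalized counts in Lyz2cre and 306.8, 331 and 323.9 in Klf6fl/fl:Lyz2cre libraries (log2 -0.27, limma adjusted p = 0.015). The call was lost without Klf6fl/fl:Lyz2cre replicate 1 (-0.23) or Lyz2cre replicate 3 (-0.19). Of its 50-base stretches, 69.29% occur in another gene's transcripts, with a run of 341 bases of its 837 shared with Psme2, and 28.27% of the stretches of Psme2 are shared, so the split of reads between the pair is uncertain.

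**Figure D2:**
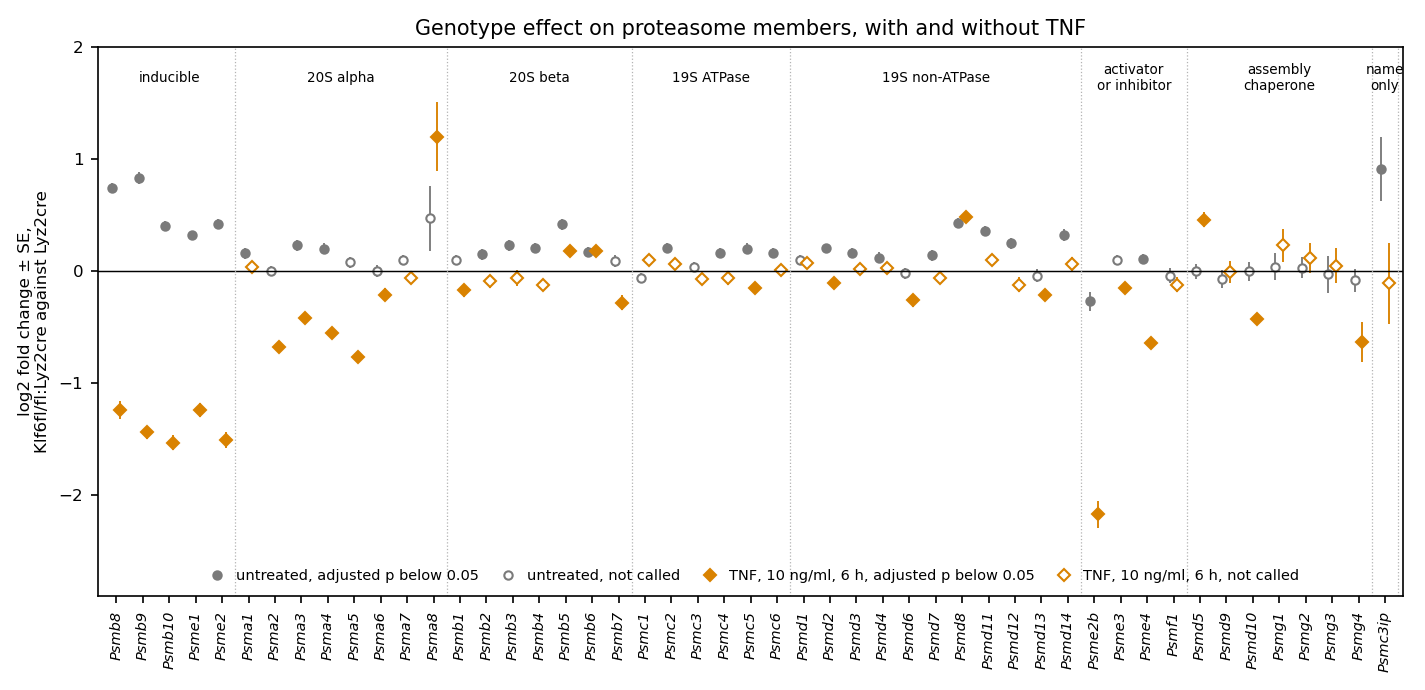
Log2 fold change of each tested member in Klf6fl/fl:Lyz2cre against Lyz2cre libraries, with its SE, untreated (circles) and with TNF (diamonds); filled symbols were called at an adjusted p below 0.05 and open ones were not. The 5 inducible members lie at 0.32 to 0.83 untreated and at -1.53 to -1.24 with TNF, while most other members lie near 0.

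With TNF, the same 5 inducible members were all lower in the Klf6fl/fl:Lyz2cre libraries, by 1.24 to 1.53 on the log2 scale (median -1.44). Of the other 44 tested members, 16 were lower and 5 higher (median -0.07), with the lower ones led by Psme2b, by Psma5 and Psma2 of the alpha ring, by Psme4 and by the chaperone Psmg4. Among the 11717 genes tested, 57.3% were called, 26.5% higher and 30.8% lower, with a median of -0.01. When values were scaled to total reads, the median of all genes moved up by 0.33 and the higher share of all calls from 46.2% to 80.4%. Under that scaling the 5 inducible members were still called lower, and the other members split 32 higher to 5 lower. In untreated libraries the same scaling moved the median by 0.13 and the higher share from 48.5% to 68.0%. All 5 inducible members and the same 22 others were called higher under both. Psma2, Psma5, Psma6, Psma7, Psmb1, Psmb7, Psmc3, Psmd1 and Psme3 were called higher untreated only under scaling to total reads.

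Psmb8 had 8375, 6190 and 7655 normalized counts in the TNF-treated Lyz2cre libraries and 3247, 3264 and 2839 in the Klf6fl/fl:Lyz2cre ones. It was thus 2.36-fold lower (log2 -1.24, SE 0.0837, limma adjusted p = 2.2e-09). Psmb9 had 4106, 3642 and 3977 against 1482, 1480 and 1347, a 2.72-fold lower level (log2 -1.44, SE 0.0567, limma adjusted p = 2.1e-12). In each of these genes the lowest control library was Lyz2cre TNF 2, and it still lay above every Klf6fl/fl:Lyz2cre library.

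Psmb10 showed the lowest fold change of the 5, with 8806, 7424 and 9124 normalized counts against 2999, 3042 and 2705 (log2 -1.53, SE 0.0669, limma adjusted p = 8.2e-12). Psme1 had 6363, 5623 and 6726 against 2748, 2647 and 2513 (log2 -1.24, limma adjusted p = 2.6e-11). Psme2 had 13480, 11160 and 13190 against 4843, 4472 and 3998 (log2 -1.51, limma adjusted p = 2.1e-11). All 5 groups stayed apart. Of the other 44 members, 20 were lower and 7 higher without overlap, where this held for 33.3% and 29.9% of all genes tested. Without library Lyz2cre TNF 2 the 5 log2 fold changes were -1.36 for Psmb8, -1.49 for Psmb9, -1.62 for Psmb10, -1.31 for Psme1 and -1.59 for Psme2. Stromal and macrophage marker sums also differed between these groups (macrophage 10450 to 10470 against 11110 to 11240 CPM, with 6 of 10 markers lower and 4 higher). So did those of cycling markers (71.33 to 85.37 against 36.06 to 42.73 CPM, 5 of 6 higher). Dendritic cell marker sums were 15.83 to 18.7 against 46.44 to 53.3 CPM, with only 1 marker tested, Itgax, which was lower. Endothelial sums were 181.4 to 189.6 against 192.9 to 215.6 CPM, with 1 of 4 tested markers higher and 2 lower. Those of the precursors were 101.7 to 110.5 against 83.94 to 99.99 CPM, with 1 of 5 tested markers higher and 2 lower. Lymphocyte sums were 2.557 to 3.205 against 1.169 to 2.3 CPM. In that list 7 of 8 markers were under 1 CPM in each group, and the 1 tested was not called. The part of these markers in the result was not tested.

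The constitutive catalytic subunits parted from their inducible counterparts. Psmb5 had 2026, 1914 and 2088 normalized counts in the TNF-treated Lyz2cre libraries against 2386, 2289 and 2144 (log2 0.18, limma adjusted p = 0.011), and Psmb6 had 3599, 3172 and 3350 against 3990, 3936 and 3564 (log2 0.18, limma adjusted p = 0.01), with overlapping groups. The Psmb5 call was lost without Klf6fl/fl:Lyz2cre replicate 1 (0.14, limma adjusted p = 0.066), and that of Psmb6 without replicates 1 (0.15) or 2 (0.16) of that genotype. Psmb7 had 1288, 1219 and 1298 against 1121, 1098 and 932.2 (log2 -0.28, limma adjusted p = 0.0031), which became 0.05 under scaling to total reads. Of the 50-base stretches of Psmb5, 54.07% occur in another gene's transcripts, mainly those of Gm3375, whose group means were 1.50 to 8.97 normalized counts.

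Among the ring and cap subunits, those of the alpha ring had the lowest median. Of the 8, 5 were called lower and 1 higher (median -0.32). Psma5 had 2390, 2263 and 2459 normalized counts in the TNF-treated Lyz2cre libraries against 1446, 1407 and 1321 (log2 -0.77, SE 0.0543, limma adjusted p = 3.8e-09). Psma2 had 2804, 2596 and 2706 against 1775, 1705 and 1590 (log2 -0.68, limma adjusted p = 1.7e-08). In both, every Klf6fl/fl:Lyz2cre library lay well below the lowest control. Psma4 followed with 3067, 3365 and 3293 against 2303, 2233 and 2099 (log2 -0.55, limma adjusted p = 1.4e-07). These 3 were also called lower under scaling to total reads, at -0.44, -0.35 and -0.22. Psma3, at 2596, 2461 and 2770 against 1998, 1966 and 1867 (log2 -0.42), was not called under that scaling (-0.10), and Psma6, at 2470, 2472 and 2346 against 2226, 2128 and 1933 (-0.21), turned to 0.11. Untreated, Psma2, Psma5 and Psma6 had not been called (0.00, 0.08 and 0.00), and Psma3 and Psma4 had been higher (0.23 and 0.20).

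Psma8, the alpha subunit of germ cells, went the other way. It had 15.91, 13.38 and 27.52 normalized counts in the TNF-treated Lyz2cre libraries against 47.63, 39.07 and 41.8 (log2 1.20, SE 0.310, limma adjusted p = 0.0037), with no overlap. Psma8 was near the floor, at a mean of 0.915 CPM in Lyz2cre and 2.605 CPM in Klf6fl/fl:Lyz2cre libraries. A gene had to reach 1 CPM in 3 libraries to be tested. It thus met this filter through the group where it was higher, which limits its test. Of the 50-base stretches of Psma5, 49.13% are shared with other transcripts, mainly Gm8394, whose group means were 2.77 to 6.64 normalized counts. For Psma3 the share was 15.39%, with Gm13835 at 13.1 to 53.5, and for Psma4 11.63%.

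In the 19S cap, 1 of the 6 ATPases and 3 of the 11 non-ATPase subunits were lower with TNF, and 1 was higher (medians -0.03 and 0.02). The higher one was Psmd8, with 3606, 3604 and 3756 normalized counts against 5102, 5139 and 5006 (log2 0.48, SE 0.0418, limma adjusted p = 5.9e-08), close to its rise without TNF. Psmc5, the ATPase called lower, had 1793, 1756 and 1901 against 1674, 1722 and 1534 (log2 -0.15), and Psmd2, a docking subunit for ubiquitin receptors, had 6494, 6486 and 6711 against 6052, 6136 and 6100 (log2 -0.11). Both became higher under scaling to total reads (0.18 and 0.22). Psmc5 was not called without Klf6fl/fl:Lyz2cre replicates 1 (-0.16) or 3 (-0.10) or Lyz2cre replicates 1 (-0.15) or 3 (-0.11). The same held for Psmd2 without any replicate of Klf6fl/fl:Lyz2cre (-0.11 to -0.10) or without Lyz2cre replicate 3 (-0.09).

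Among activators, Psme4 had 3100, 3065 and 3079 normalized counts in TNF-treated Lyz2cre libraries against 1942, 1989 and 1982 (log2 -0.64, SE 0.0446, limma adjusted p = 3e-09), and it was also lower under scaling to total reads (-0.32). Psme2b had 972.8, 828.7 and 942.5 against 223.2, 233.5 and 159.4 (log2 -2.17, limma adjusted p = 2.2e-10), the largest fall of any member, with the limit on its shared sequence given above. Psme3 had 2171, 2281 and 2239 against 2056, 2039 and 1947 (log2 -0.15, limma adjusted p = 0.016). Its call was lost without Klf6fl/fl:Lyz2cre replicate 3 (-0.12) and its direction turned under scaling to total reads (0.18). Psmf1 had 860.4, 782.4 and 769.4 against 736.9, 747.9 and 731 and was not called (log2 -0.12).

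Assembly chaperones divided. Psmd5, a chaperone of the ATPase ring, had 672.4, 701.1 and 786.6 normalized counts in TNF-treated Lyz2cre libraries against 1028, 965 and 975 (log2 0.46, limma adjusted p = 3.3e-05). Psmd10 (gankyrin), another chaperone of that ring, had 2232, 2230 and 2412 against 1747, 1706 and 1632 (log2 -0.43, limma adjusted p = 2.5e-06). It was not called under scaling to total reads (-0.11), and neither was Psmg4 (-0.30). Psmg4, a chaperone of the alpha ring, had 212.9, 163.7 and 300.4 against 154.1, 145.4 and 126.4 (log2 -0.63, limma adjusted p = 0.0066), and -0.40 (adjusted p = 0.05) without Lyz2cre replicate 3. The remaining 4 chaperones were not called.

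Whether the genotype effect itself changed under TNF was tested as a limma contrast over the 12 libraries, the effect with TNF minus the untreated one. All 5 inducible members were lower in this contrast, by 1.56 to 2.27 (median -1.93): Psmb9 by 2.27 (SE 0.0795, adjusted p = 7.2e-15), Psmb8 by 1.98, Psmb10 and Psme2 by 1.93 each, and Psme1 by 1.56. In the same contrast 52.2% of the 11425 genes tested were called, 26.5% higher and 25.7% lower, with a median of 0.02. Of the 44 other members, 25 were lower and 1, Psmd5, was higher (median -0.23). Scaling to total reads moved the median of all genes by 0.19 and the higher share of all calls from 50.8% to 71.6%. Under it 8 of the 25 were still lower, namely Psma2, Psma3, Psma4, Psma5, Psmd10, Psmd2, Psme2b and Psme4. Psmd5 kept its call.

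Alpha-ring subunits again led the structural members in this contrast, with Psma5 at -0.85 (SE 0.0707, limma adjusted p = 4.2e-09), Psma4 at -0.76, Psma2 at -0.68 and Psma3 at -0.66. Psme2b stood at -1.90 and Psme4 at -0.75. Psmb5 (-0.25), Psmb7 (-0.36) and Psme3 (-0.25) were called, while Psmb6 (0.01) and Psmf1 (-0.08) were not. The smallest called values were those of Psmc4 (-0.22), Psma6 (-0.22), Psmd7 (-0.19) and Psmc2 (-0.15). Psmd14 (-0.26) lost its call without Klf6fl/fl:Lyz2cre untreated replicate 2 (-0.22) or Lyz2cre TNF replicate 3 (-0.20), and Psmg4 (-0.55) without any of 9 libraries (-0.57 to -0.32), all but Lyz2cre untreated 2 and TNF 2 and Klf6fl/fl:Lyz2cre TNF 1. Psmc4 and Psmc2 are ATPases of the cap's base. Psmc4 had 1300, 1301 and 1286 normalized counts in Lyz2cre against 1451, 1441 and 1444 in Klf6fl/fl:Lyz2cre libraries untreated, and 1727, 1591 and 1891 against 1711, 1710 and 1560 with TNF. Psmc2 had 1538, 1645 and 1656 against 1863, 1895 and 1831 untreated, and 2232, 2138 and 2226 against 2266, 2274 and 2313 with TNF. Only the TNF groups of Psmc4 overlapped among these 4 comparisons. For Psmc4 the call was lost without Lyz2cre untreated replicate 3 (-0.21) or replicate 3 of either genotype with TNF (-0.17 and -0.16). Psma6 lost it without any of 5 libraries (-0.21 to -0.16), namely Klf6fl/fl:Lyz2cre untreated 2 and TNF 3 and Lyz2cre untreated 1 and 3 and TNF 1. Psmc2 lost it without any of 7 (-0.15 to -0.12), namely Klf6fl/fl:Lyz2cre untreated 1 and 2 and TNF 1 and 2 and Lyz2cre untreated 1 and TNF 1 and 3.

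Ratios within a library do not depend on any scaling between libraries, and each inducible catalytic subunit was set against the constitutive subunit it replaces. Without TNF the Psmb8 to Psmb5 ratio was 1.42, 1.57 and 1.42 in Lyz2cre libraries and 1.89, 1.79 and 1.81 in Klf6fl/fl:Lyz2cre ones. With TNF it was 4.13, 3.24 and 3.67 against 1.36, 1.43 and 1.32. The Klf6fl/fl:Lyz2cre libraries thus had the higher ratio untreated and the lower ratio with TNF, by 0.32 and -1.42 on the log2 scale.

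Psmb9 to Psmb6 ratios were 0.445, 0.404 and 0.446 against 0.686, 0.692 and 0.666 untreated, and 1.14, 1.15 and 1.19 against 0.372, 0.376 and 0.378 with TNF (log2 differences 0.66 and -1.63). For Psmb10 to Psmb7 they were 1.68, 1.47 and 1.60 against 1.86, 2.00 and 2.04 untreated, and 6.84, 6.09 and 7.03 against 2.68, 2.77 and 2.90 with TNF (log2 differences 0.31 and -1.26). In all 6 comparisons the genotypes did not overlap. Each gave p = 0.1 in a two-sided exact permutation test, also after Benjamini-Hochberg adjustment over the 6, which is the smallest p that 3 libraries against 3 can give. The difference between the 2 log2 differences was -1.74, -2.29 and -1.57 for the 3 pairs. Its exact permutation p, over the 400 ways to relabel genotypes within the tables, was 0.005 for each pair (adjusted 0.005), also the smallest possible.

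**Figure D3:**
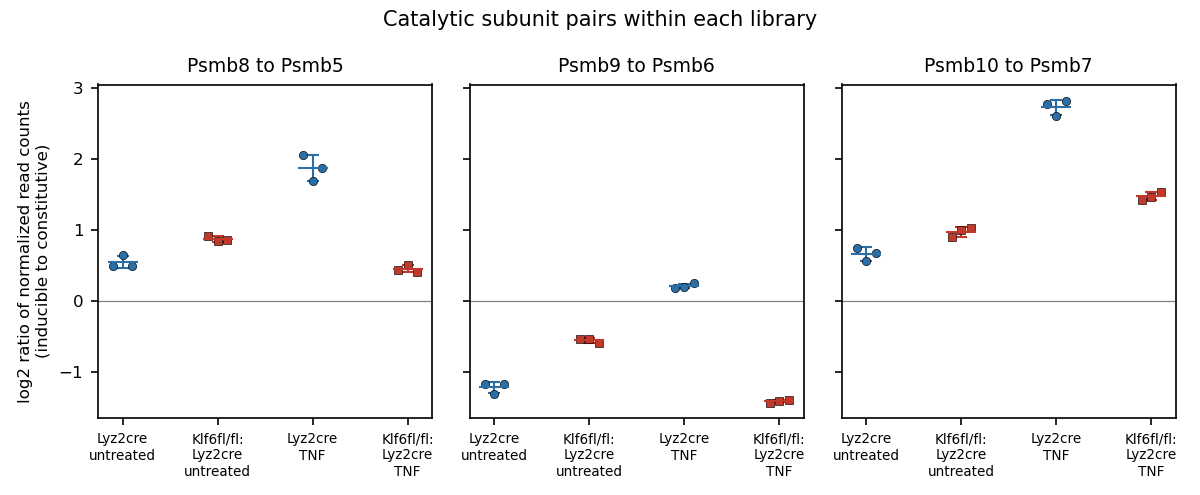
Log2 ratio of normalized read counts within each library for the 3 catalytic pairs, inducible over constitutive, in the 4 groups. Points are libraries, long bars are means and whiskers are SD over 3 libraries; in each panel the Klf6fl/fl:Lyz2cre libraries lie above the Lyz2cre libraries untreated and below them with TNF.

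Taken as a share of all reads on members, the 5 inducible genes held 11.3% ± 0.147 (SD, n = 3) in untreated Lyz2cre libraries and 14.1% ± 0.101 in untreated Klf6fl/fl:Lyz2cre libraries. With TNF they held 31.8% ± 2.03 and 15.9% ± 0.612. The share with TNF ranged from 29.45% to 33.23% in the controls and from 15.23% to 16.39% in the Klf6fl/fl:Lyz2cre libraries. Reads on the other members summed to means of 2969 CPM untreated and 4009 CPM with TNF in Lyz2cre, and to 3624 and 4665 CPM in Klf6fl/fl:Lyz2cre libraries, without a test between treatments.

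Levels across the TNF treatment are given as ratios of mean CPM without a test, since the 2 tables were normalized separately. In Lyz2cre macrophages the 5 inducible members had a median log2 ratio of 2.18, from 1.50 for Psme1 to 2.94 for Psme2, where the other 44 members had a median of 0.37 and the 11425 genes tested in both tables -0.28. In Klf6fl/fl:Lyz2cre macrophages the inducible median was 0.39, from 0.07 for Psmb9 to 1.21 for Psme2, close to the 0.35 of the other members, with -0.04 over all genes. Psmd10 had the highest ratio of the other members in both genotypes, at 2.35 and 2.11. Its mean CPM was 21.8 untreated and 111 with TNF in Lyz2cre, and 23.8 and 103 in Klf6fl/fl:Lyz2cre libraries.

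Medians of the structural classes lay closer together in the 2 genotypes than those of the inducible members. Beta subunits had medians of 0.43 in Lyz2cre and 0.27 in Klf6fl/fl:Lyz2cre, the 19S ATPases 0.42 and 0.38, the non-ATPase subunits 0.34 and 0.37, and the alpha subunits 0.63 and 0.40. Psma5 had the highest ratio of the alpha ring in Lyz2cre, at 1.15 against 0.50. Psme4 had 0.57 against 0.02. Psme2b had 1.25 against -0.44. No test was run on these ratios.

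**Figure D4:**
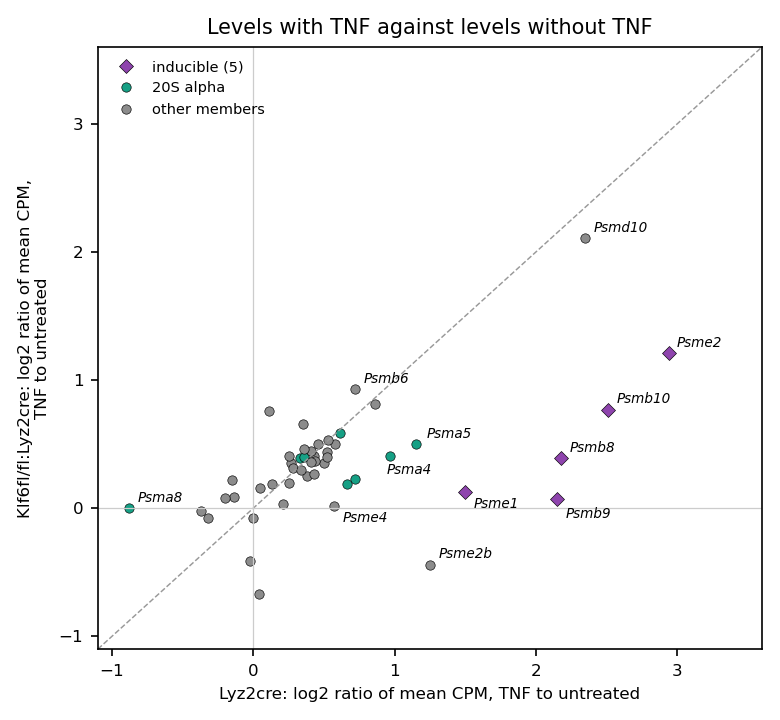
Log2 ratio of mean CPM, TNF to untreated, of each tested member in Klf6fl/fl:Lyz2cre (vertical) against Lyz2cre macrophages (horizontal), with the line of equal ratios dashed. Each point is 1 gene over group means of 3 libraries; the 5 inducible members (diamonds) lie at 1.50 to 2.94 on the horizontal and 0.07 to 1.21 on the vertical axis, and Psmd10 lies near the line.

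Levels of different members were compared only per length, as CPM per kb of merged exons. In untreated Lyz2cre libraries the inducible catalytic subunits were not the leading members. Psmb8 stood at 23.3 ± 1.05 (SD, n = 3), Psmb9 at 11.7 ± 0.424 and Psmb10 at 42.2 ± 1.01. Psmb5 stood at 59.8 ± 2.61, Psmb6 at 53.0 ± 2.18 and Psmb7 at 13.3 ± 0.581. In these untreated libraries Psme1 ranked 8 and Psme2 ranked 10. With the length of the longest coding transcript they already ranked 3 and 5 without TNF. With TNF, Psme2 ranked 1 among the 49 members in Lyz2cre libraries at 346 ± 29.8, Psmb10 ranked 2 at 240 ± 22.0 and Psme1 ranked 3 at 137 ± 10.2, and these ranks were the same with the length of the longest coding transcript. In the Klf6fl/fl:Lyz2cre libraries Psmb5 (154 ± 8.31) and Psme2 (153 ± 14.7) headed the order and did not differ beyond their spread. With the coding transcript's length Psmb6 (292 ± 17.8) and Psme2 (281 ± 26.9) headed it instead, again within their spread. The order of Psmb8 and Psmb5 depended on the length used, while Psmb9 stayed below Psmb6 and Psmb10 above Psmb7 in every group. With TNF, the Psmb8 to Psmb5 log2 ratio in Lyz2cre libraries was -0.03 per merged exon length and 1.02 per longest coding transcript.

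Other genes that act with the proteasome were counted in 4 lists. Of all genes tested, 56.9% were called untreated (27.6% higher, 29.3% lower) and 57.3% with TNF (26.5% higher, 30.8% lower). Under scaling to total reads, 68.0% of all calls untreated and 80.4% with TNF were higher. In the first list 41.7% were called untreated and 58.3% with TNF. Of 24 tested genes for assembly, substrate receptors and regulation, 5 were higher and 5 lower untreated (median 0.02), and 5 were higher and 9 lower with TNF (median -0.12). Under scaling to total reads these splits turned to 14 higher and 3 lower untreated (median 0.15) and to 16 higher and 2 lower with TNF (median 0.21). The largest called change of this list with TNF was that of Zfand2a, which was higher at 1663 ± 60.91 against 1016 ± 36.95 normalized counts (log2 0.71). With TNF, Pomp, the maturation factor of the core particle, was lower at 1501 ± 224.7 against 2276 ± 154.9 normalized counts (SD, n = 3, log2 -0.61). Ngly1, the deglycosylase needed to activate the proteasome gene factor NRF1, was lower untreated (log2 -0.54). Ddi2, the protease that cleaves that factor, was lower untreated (log2 -0.31) and higher with TNF (log2 0.51).

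Among 14 genes of peptide trimming and class I loading, 7 were higher and 2 lower untreated (median 0.14), and 1 was higher and 7 lower with TNF (median -0.11), or, under scaling to total reads, 12 and 1 untreated (median 0.27) and 8 and 6 with TNF (median 0.22). Tap1, the peptide transporter gene beside Psmb9, had 3680 ± 322.3 against 1729 ± 54.26 normalized counts untreated (log2 1.09) and 3766 ± 254.0 against 15790 ± 1371 with TNF (log2 -2.07). Of 11 tested genes of ubiquitin and ubiquitin-like conjugation, 4 were higher and 1 lower untreated (median 0.08), and 7 were lower with TNF and none higher (median -0.78), led by Isg15, a ubiquitin-like modifier (log2 -3.64). Scaled to total reads, 7 of these 11 were higher and 1 lower untreated (median 0.21), and 4 were higher and 6 lower with TNF (median -0.45). Of 8 interferon and class I transcription factors, 7 were higher and 1, Irf8, lower untreated (median 1.02), and 7 were lower and Irf8 higher with TNF (median -1.97), with the same counts under scaling to total reads. Nlrc5, the activator of class I genes, had log2 fold changes of 1.26 untreated and -2.33 with TNF. Untreated and with TNF, 64.3% and 57.1% of the peptide and class I list were called, against 56.9% and 57.3% of all genes. For the conjugation list the shares were 45.5% and 63.6%.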

How the data were processed

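The 12 libraries were made from total RNA (High Pure kit) with TruSeq Stranded Total RNA and Ribo-Zero Gold reagents, per the labels' protocols. Per the submitters' processing notes, Cufflinks and the builds GRCm39 and mm10 were used, with no version or role stated. Aligner, counting tool, annotation and use of strand: not given in the sources used here.

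Normalized signal for every gene was deposited by the authors in 2 tables, 1 per treatment, under Ensembl identifiers. In each library all values were whole multiples of the same step (tolerance 0.001 reads), that is, reads over a size factor set within the table. Whole reads recovered this way gave CPM. Symbols paired 22867 of 22896 and 21411 of 21437 identifiers. Positions are GENCODE vM21 (GRCm38).

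The members, gene lists and promoter motifs were chosen with earlier results of these data known. Library values or their range are given, in 1 or both treatments, for 33 members named by rule. These are the 5 inducible members, Psmb5, Psmb6, Psmb7, Psme3, Psme4, Psmf1 and the 5 highest and 5 lowest other members called in each comparison. Psmd10 was added after its values were seen. A searched promoter motif and a gene of the other lists are not reported here. Genes reaching 1 CPM in 3 or more libraries were tested within each table by limma 3.58.1 (R 4.3.3) with a trend on log2(value + 1), at an adjusted p below 0.05. The TNF response and levels per length have no test. The tests were checked on simulated counts. Alternatives were edgeR 4.0.16 quasi-likelihood with TMM and DESeq2 1.42.0 on recovered reads, total-read scaling, a pseudocount of 10, no filter, at least 5 CPM, the replicate block and each library left out. Counts carry no molecular identifiers.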

Additional observations from a re-analysis of the deposited data

Results flagged for a closer look

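The genotype effect with TNF minus that without TNF passed the limma test of the difference in 26 of the 33 members named by rule. That rule names some members because they were called, so this count does not describe the members as a set. Of all 49 tested members 63.3% passed, 1 higher and 30 lower, against 52.2% of the 11425 genes tested. Under scaling to total reads, 8 of the 25 other members called lower kept that call. The difference was -1.98 for Psmb8, -2.27 for Psmb9, -1.93 for Psmb10, -1.56 for Psme1 and -1.93 for Psme2 on the log2 scale. Among the other catalytic and beta subunits it was -0.25 for Psmb5, -0.36 for Psmb7 and -0.25 for Psmb2. Among alpha subunits it was -0.85 for Psma5, -0.76 for Psma4, -0.68 for Psma2, -0.66 for Psma3 and -0.22 for Psma6. Among the 19S subunits it was -0.37 for Psmd12, -0.35 for Psmc5, -0.32 for Psmd2, -0.27 for Psmd11, -0.26 for Psmd14, -0.22 for Psmc4, -0.19 for Psmd7 and -0.15 for Psmc2. Among activators and chaperones it was -1.90 for Psme2b, -0.75 for Psme4, -0.25 for Psme3, -0.55 for Psmg4 and 0.46 for Psmd5, the single positive value. The chaperone Psmd10, which the rule did not name, also passed, at -0.43.

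The same difference, computed on ratios within a library, was -1.74 for Psmb8 to Psmb5, -2.29 for Psmb9 to Psmb6 and -1.57 for Psmb10 to Psmb7, each at the smallest p that the exact permutation test can give.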

How the results depend on the processing

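The counts of inducible members called (5 higher untreated, 5 lower with TNF and 5 lower in the difference) did not change under any alternative run, nor did the direction of the 6 pair-ratio differences. The cause was not tested for any change below. Scaling to total reads changed the other members' counts most: untreated lower calls went from 1 to 0, TNF higher calls from 5 to 32 and lower calls from 16 to 5, and in the difference higher calls went from 1 to 4 and lower calls from 25 to 8. Untreated higher calls rose above 22, joined by Psma2, Psma5, Psma6, Psma7, Psmb1, Psmb7, Psmc3, Psmd1 and Psme3. With single libraries left out, untreated lower calls ranged from 0 to 1, TNF higher calls from 3 to 7 (3 without Klf6fl/fl:Lyz2cre replicate 1) and higher calls in the difference from 1 to 2.

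Scaling to total reads also turned the sign of single log2 fold changes: Psmf1 to 0.10 untreated, 0.21 with TNF and 0.11 in the difference, Psmb7 to 0.05, Psme3 to 0.18, Psmc5 to 0.18, Psmd2 to 0.22, Psma6 to 0.11, Psmb1 to 0.15, Psmd13 to 0.12 and Psmd6 to 0.06 with TNF, and Psmd7 to 0.00 and Psmc2 to 0.04 in the difference. Psmf1 untreated ranged from -0.10 to 0.02 without single libraries (0.02 without Lyz2cre replicate 1). The uncalled difference of Psmb6 was -0.02 by edgeR, -0.01 by DESeq2 and -0.03 to 0.06 without single libraries. Over the 1180 combinations of an alternative with a fold change of the 33 members named by rule, 1070 kept their call and direction, 87 lost the call, 5 gained it and 18 reversed.

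The median TNF response with size factors over 12 libraries was 2.48 for the inducible and 0.67 for the other members in Lyz2cre, and 0.42 for the other members in Klf6fl/fl:Lyz2cre, and without single libraries the Lyz2cre value of the other members ranged from 0.36 to 0.40. Per longest coding transcript, an alternative chosen after seeing the data, the Psmb8 to Psmb5 log2 ratio turned to 0.01 in untreated Klf6fl/fl:Lyz2cre and to 1.02 in TNF-treated Lyz2cre libraries.

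Replicate numbers recur between genotypes. After removal of group means, same-numbered libraries correlated at 0.152, -0.0378 and 0.158 in the untreated table and at -0.0209, -0.0123 and -0.0295 in the TNF table. Pairs with different numbers ran from -0.23 to 0.114 untreated and from -0.00153 to 0.0224 with TNF. These correlations cannot decide whether same-numbered libraries share more than a number, and the labels do not say. With the replicate number as a block, the other members had 24 higher and 1 lower calls untreated, 5 and 14 with TNF, and 1 and 22 in the difference.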

Other observations

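Psmg4 and Psma8, the members with the widest relative spread among those called with TNF, had SDs of 69.25 normalized counts around a mean of 225.6 and of 7.537 around 18.94 in the Lyz2cre libraries. Psma2 lies on chromosome 13, as Klf6 does, 8.74 Mb away in GRCm38.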
